A study of Mus musculus with 10 samples.

Results

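Trophoblast cells taken out of blastoids were set against trophoblast stem cells kept in culture. A blastoid is a blastocyst-like structure that forms when trophoblast stem cells and embryonic stem cells are put together. The blastoid pTSC library holds trophoblast stem cells of line pTS1 that were isolated from harvested blastoids. The cultured pTSC library holds newly derived trophoblast stem cells (pTSCs) grown in LT21 medium. Both groups have a C57BL/6J background and carry a randomly integrated GFP expression cassette. The labels do not say whether the cultured cells are also line pTS1, so that line, plate, culture and the blastoid itself cannot be told apart. RNA was measured with CEL-Seq2, a method for single cells that reads the 3' end of each transcript and counts molecules by identifiers (UMIs), in 1 plate of 384 wells per library. TSCs and differentiated TSCs (kept without growth factors), both labelled F4 and each also 1 library, are given only for orientation.

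Wells entered with at least 2000 UMIs outside mitochondrial genes. In the blastoid library, wells were left out when their summed counts of Tdgf1, Tdh, Dppa5a, Fgf4 and Gdf3, genes of pluripotent cells, reached 2. This kept 240 of 257 blastoid wells with enough UMIs and 299 cultured pTSC wells, together 539 of the 1192 wells with enough UMIs in the 4 single-cell libraries and of 1536 wells in all. The wells left out held 3 to 70 counts of these genes (median 9), and 10 kept blastoid wells held 1 count. The filter was not applied to cultured wells, of which 1 held 2 counts. In all, kept wells held 2216724 UMIs in the blastoid library (median 8393.5 per well) and 2437481 in the cultured library (median 6844 per well). Mitochondrial genes took 19.6% of all counts in blastoid wells and 15.1% in cultured wells, and 87 wells of the blastoid plate and 20 wells of the cultured plate held under 200 UMIs. Whether depth, the mitochondrial share or the wells of few UMIs bear on the differences was not tested. All 384 well labels occur in both libraries because they are plate positions. Doublets were not called.

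The outer wall of the blastocyst, the trophectoderm, is a fluid-pumping epithelium. Its polar part touches the inner cell mass, which supplies fibroblast growth factor (FGF), and keeps a stem state through the kinase ERK. The mural part lies away from the inner cell mass, leaves the mitotic cycle early and starts to differentiate toward implantation. Trophoblast stem cells are held in culture with FGF, heparin and TGF-beta family signals.

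The label fits the markers of trophoblast in both libraries. The 7 trophoblast markers together stood at 6802 CPM (a gene's counts scaled to a fixed total of counts outside mitochondrial genes) in blastoid wells and 4404 CPM in cultured wells, and none of the 7 was at 0 in either. The keratins Krt8 and Krt18 gave most of this sum in both libraries and were higher in blastoid wells. Cdx2 (34.3 and 54.6 CPM), Eomes (313 and 581 CPM), Elf5 and Gata3 were lower in blastoid wells, none of them 2-fold. Tfap2c was at 5.41 and 4.51 CPM. The 14 epiblast or embryonic stem cell markers summed to 706 CPM in blastoid wells and 1362 CPM in cultured wells, with 4 and 3 of them at 0 or without an entry. The filter on blastoid wells used 5 of the 14, so their low values there follow from the rule. Most of these counts came from Utf1 and Dppa2, which trophoblast stem cells also express, and the pluripotency factor Pou5f1 had 0 counts in blastoid wells and 1 in cultured wells. Primitive endoderm markers summed to 26.2 CPM in blastoid wells and 30.4 CPM in cultured wells, and fibroblast markers to 12.2 and 44.7 CPM. A longer list of 14 primitive endoderm genes went the other way, at 2245 CPM in blastoid wells and 1311 CPM in cultured wells. The prolactin gene Prl3d1 of giant cells and the transcription factor Gcm1 of syncytiotrophoblast had 0 counts in both libraries. The epithelial keratin Krt18 was at 121 CPM in the 17 blastoid wells left out, against 4279 CPM in the blastoid wells kept. After thinning, that is reducing each well to 2000 UMIs, 29.4% of these 17 wells and 94.2% of the kept blastoid wells held a UMI of Krt18. The share in left-out wells differed by gene: it was 0% for Rhox5 (93.3% of kept wells), 11.8% for Arid3a (32.1% of kept wells) and 5.88% for Nat8l (13.3% of kept wells). Of 18 genes looked at, 3 had a larger share in left-out wells: Phlda2 (47.1%, against 35.8% of kept wells), Cpt1a (41.2%, against 16.7%) and Dusp6 (11.8%, against 5.83%). With 17 wells, a share of 0 allows up to 19.5% by its exact interval.

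Each group is 1 library, so no test was possible and no difference has a replicate check. Summed counts per gene were compared as a ratio of CPM. The 95% intervals cover counting error only, and wells are not replicates. A gene is called higher or lower in blastoid pTSCs at a 2-fold difference, whatever its interval. Over both libraries, 11219 genes reached the minimum of 10 counts and were measured. Of these, 1403 were higher (12.5%) and 1143 were lower (10.2%). The whole interval lay beyond 2-fold for 307 higher and 255 lower genes. The median log2 ratio over all measured genes was 0.07. In the plot of all genes, most lie within the 2-fold lines, and the labelled genes other than Krt18 lie outside them.

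**Figure D1:**
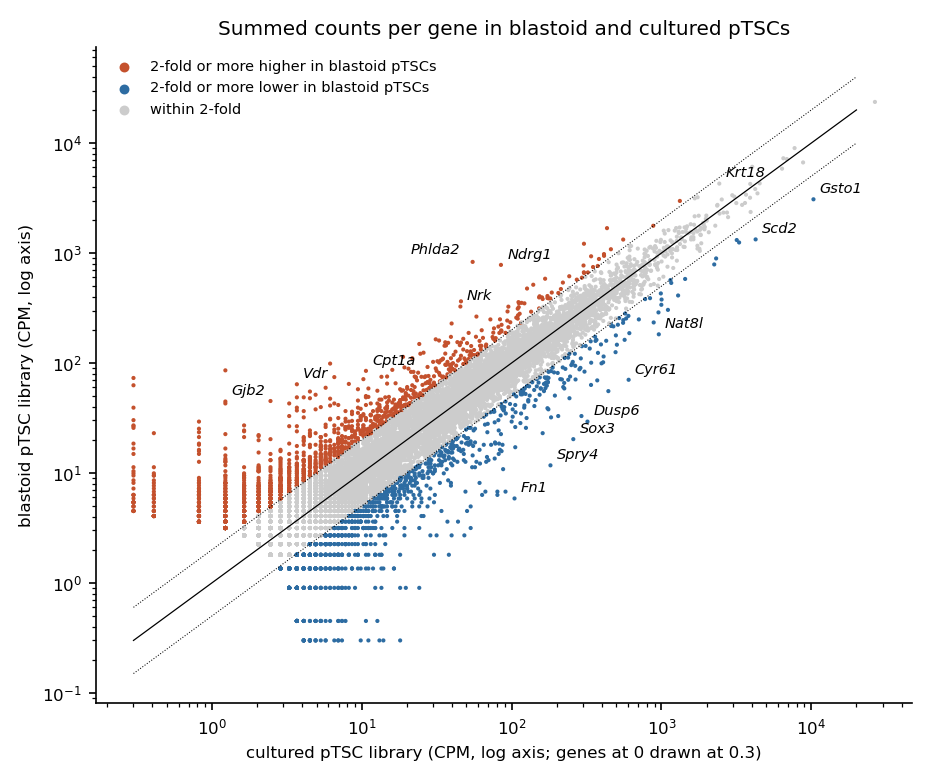
Summed level of each measured gene in the blastoid pTSC library (vertical) and the cultured pTSC library (horizontal), in CPM on log axes, with genes at 0 drawn at the edge. The solid line marks equal levels and the dotted lines 2-fold differences. The 1403 genes above the upper dotted line are red and the 1143 below the lower one are blue.

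The markers given for the comparison divide by direction. Vdr, the receptor of vitamin D, had 142 counts (64.1 CPM) in blastoid pTSCs and 9 counts (3.69 CPM) in cultured pTSCs, a ratio of 17.4 (8.89 to 38.7). The highest 24 of 240 blastoid wells held 78.9% of its blastoid counts. A UMI of Vdr was seen in 9.58% of blastoid wells and 0.669% of cultured wells after thinning. Ndrg1, a gene that responds to stress and low oxygen, stood at 780 CPM in blastoid pTSCs and 84.9 CPM in cultured pTSCs, a ratio of 9.18 (7.95 to 10.7). After thinning, a UMI of Ndrg1 was seen in 59.2% of blastoid wells (52.7 to 65.45) and 14.4% of cultured wells (10.6 to 18.9). The difference in Ndrg1 spanned many wells. Cpt1a, which carries long-chain fatty acids into mitochondria for burning, was at 84.8 CPM in blastoid pTSCs and 10.7 CPM in cultured pTSCs, a ratio of 7.95 (5.26 to 12.5). The 17 left-out blastoid wells held Cpt1a at 363 CPM, above the kept wells, and Ndrg1 at 111 CPM, below them. The part of such cells in the Cpt1a difference was not tested. TSCs had Cpt1a at 82.4 CPM and differentiated TSCs at 183 CPM.

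Dusp6 and Sox3 went the other way. Dusp6 encodes the phosphatase that switches ERK off and is itself switched on by ERK. Its level was 29.3 CPM in blastoid pTSCs and 321 CPM in cultured pTSCs, 10.9-fold lower (8.49 to 14.3), and a UMI was seen in 5.83% of blastoid wells and 42.1% of cultured wells after thinning. Sox3, a SOX-family transcription factor on the X chromosome, was at 20.3 CPM in blastoid pTSCs and 258 CPM in cultured pTSCs, 12.7-fold lower (9.39 to 17.6). In TSCs Sox3 stood at 67.6 CPM and in differentiated TSCs at 7.68 CPM.

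Of 16 genes listed as FGF and ERK targets, 12 were measured, 11 were lower and 0 higher in blastoid pTSCs, beside 10.2% lower among all measured genes, and the median log2 ratio was -2.42. The list was written with Dusp6 known to be lower. Spry4, an inhibitor that ERK induces against its own pathway, was at 11.7 CPM in blastoid pTSCs and 182 CPM in cultured pTSCs, 15.5-fold lower (10.4 to 23.99). Its relatives Spry2 (52.3 and 124 CPM) and Spred1 (66.8 and 137 CPM) were lower by less. Phlda1 was at 55.5 CPM in blastoid pTSCs and 442 CPM in cultured pTSCs, the phosphatase Dusp4 at 6.77 and 49.2 CPM, and the AP-1 factor Fosl1 at 17.1 and 106 CPM. The cyclin of the G1 phase Ccnd1 stood at 14.9 CPM in blastoid pTSCs and 48 CPM in cultured pTSCs. Spred2 was the measured member within 2-fold (202 and 324 CPM). Etv4, Etv5 and Myc had 1 or 2 counts at most in either library and were not measured, and Spry1 was not analysed here. Egr1 rested on 1 and 26 counts. Dusp9, an ERK phosphatase outside the list that was picked after its values were seen, went the other way, at 1214 CPM in blastoid pTSCs and 304 CPM in cultured pTSCs, a ratio of 3.99 (3.68 to 4.34).

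Each well was thinned to 2000 UMIs to look at the same genes per cell. The sum of the FGF and ERK targets had a median of 1 UMI in blastoid wells (quartiles 0 and 2) and 4 UMIs in cultured wells (quartiles 2 and 5). No UMI of the list was found in 42.5% of blastoid wells and in 6.69% of cultured wells. The distributions overlapped. The mean was 1.08 UMIs in blastoid wells and 4.01 in cultured wells, with 1.88 in TSC wells and 2.13 in differentiated TSC wells. By this mean TSC and differentiated TSC wells lay between the pTSC libraries, while their medians were 1, as in blastoid wells.

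Genes of the polar trophectoderm were lower and genes of the mural trophectoderm higher. Of 13 measured polar genes among 15, 9 were lower and 0 higher, beside 10.2% lower among all measured genes, with a median log2 ratio of -1.39. Nat8l, which makes N-acetylaspartate, was at 182 CPM in blastoid pTSCs and 960 CPM in cultured pTSCs, 5.27-fold lower by CPM, and was seen in 13.3% and 67.2% of wells after thinning. Gsto1, a glutathione transferase, was at 3080 CPM in blastoid pTSCs and 10333 CPM in cultured pTSCs. TSCs had Gsto1 at 1034 CPM and differentiated TSCs at 1201 CPM, so cultured pTSCs were the highest of the 4 libraries. Duoxa2, the maturation factor of the oxidase Duox2, was at 8.12 CPM in blastoid pTSCs and 61.1 CPM in cultured pTSCs, and Duox2 itself at 256 and 522 CPM. Wnt6, a WNT ligand, was at 95.6 CPM in blastoid pTSCs and 250 CPM in cultured pTSCs, and Utf1 at 429 and 990 CPM. Rhox5 (2362 and 3935 CPM) was within 2-fold. Upp1, Slc7a3 and Ly6a are among the lower genes on 3 counts each in blastoid wells.

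Of 15 measured mural genes among 16, 6 were higher and 0 lower, beside 12.5% higher among all measured genes, with a median log2 ratio of 0.82. Besides Ndrg1, the iodide transporter Slc5a5 was at 83.01 CPM in blastoid pTSCs and 22.1 CPM in cultured pTSCs, the lipid-binding protein Anxa1 at 75.8 and 26.7 CPM, and the lectin Lgals1 at 1326 and 555.5 CPM. Of the keratins of simple epithelia, Krt7 was at 143 CPM in blastoid pTSCs and 61.5 CPM in cultured pTSCs, Krt8 at 1769 and 882 CPM, Krt18 at 4279 and 2432 CPM and Krt19 at 109 and 72.2 CPM. Krt7 and Krt8 reached 2-fold, Krt8 only just. Flt1, a receptor of vascular growth factor, was at 658 CPM in blastoid pTSCs and 397 CPM in cultured pTSCs while its share of thinned wells was 34.2% and 45.5%.

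**Figure D2:**
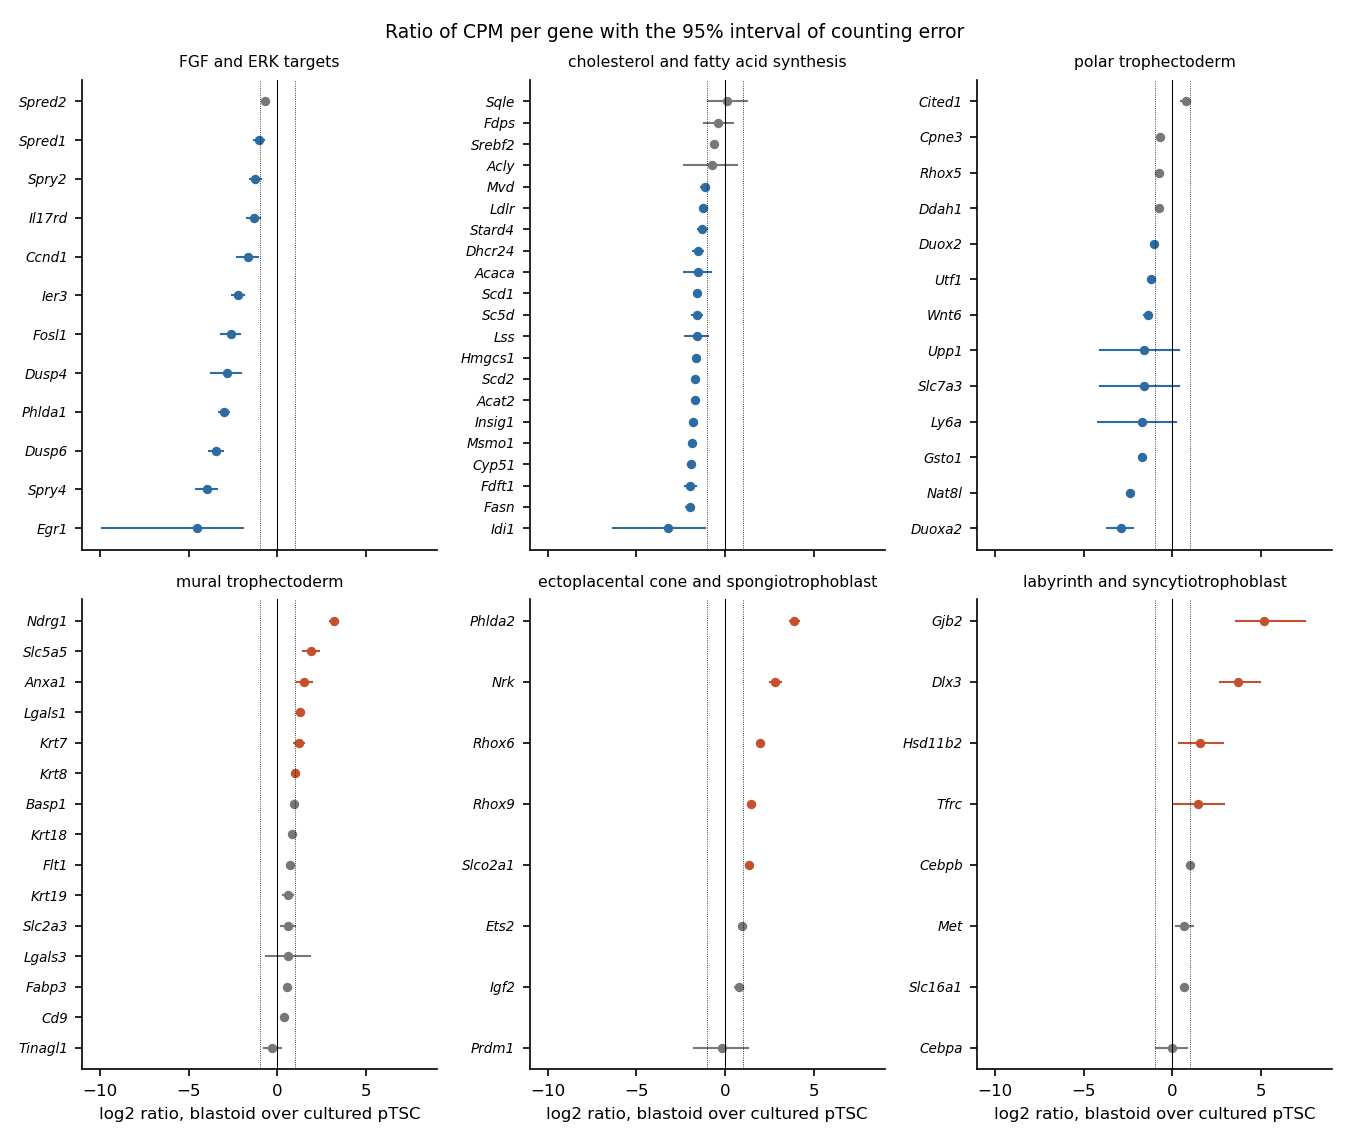
Log2 ratio of CPM, blastoid over cultured pTSC, for the measured genes of 6 lists, with 95% intervals of counting error. Of these genes, 1 is not drawn. Dotted lines mark 2-fold. The FGF and ERK, cholesterol and polar lists lie left of 0 with few exceptions, while the mural, ectoplacental and labyrinth lists lie mostly right of it.

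Genes of the differentiating trophoblast outside the mural list were also higher. Of 8 measured ectoplacental cone and spongiotrophoblast genes among 10, 5 were higher and 0 lower, beside 12.5% higher among all measured genes (median log2 ratio 1.41). Phlda2, an imprinted gene that restrains placental growth, stood at 830.5 CPM in blastoid pTSCs and 54.97 CPM in cultured pTSCs, a ratio of 15.1 (12.7 to 18.1). Its counts were uneven: the highest 24 of 240 blastoid wells held 75.8% of them. The left-out blastoid wells had Phlda2 at 393 CPM and in 47.1% of thinned wells, against 35.8% of the kept wells, so its share of wells is not read as expression. Nrk, an X-linked kinase of the spongiotrophoblast, was at 326 CPM in blastoid pTSCs and 45.5 CPM in cultured pTSCs, a ratio of 7.16 (5.86 to 8.83), and the highest 24 blastoid wells held 85.5% of its counts. The homeobox genes Rhox6 (1684 and 433 CPM) and Rhox9 (934 and 339 CPM) were higher in blastoid pTSCs, and so was the prostaglandin transporter Slco2a1 (770 and 302 CPM). Ascl2 (5 and 0 counts) and Tpbpa (3 and 0 counts), defining factors of the spongiotrophoblast lineage, were too few to be measured. Phlda2 was at 755 CPM in TSCs and 598 CPM in differentiated TSCs, so that cultured pTSCs are the library that stands low for it.

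In the labyrinth and syncytiotrophoblast list 4 of 8 measured genes among 14 were higher and 0 lower, beside 12.5% higher among all (median log2 ratio 1.21). The gap junction gene Gjb2 had 99 counts in blastoid pTSCs and 3 in cultured pTSCs, a ratio of 36.3 (12.1 to 179), and the homeobox gene Dlx3 had 95 and 8 counts. Both were rare: Gjb2 was seen in 2.5% and Dlx3 in 5.83% of thinned blastoid wells. Serpinb9e and Serpinb9g are members of the trophoblast giant cell list instead. Serpinb9e had 162 counts in blastoid pTSCs and 0 in cultured pTSCs, at least 59.4-fold higher when 3 counts over the library stand for 0. Serpinb9g had 87 and 0 counts. Both belong to a family of near-identical copies on mouse chromosome 13 whose reads the counting may have split or shared, so these values are uncertain. Arid3a, a DNA-binding protein of the trophectoderm, belongs to the list of TSC regulators instead. It was at 229 CPM in blastoid pTSCs and 39.8 CPM in cultured pTSCs, a ratio of 5.75 (4.62 to 7.22). After thinning it was seen in 32.1% of blastoid wells and 7.02% of cultured wells.

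**Figure D3:**
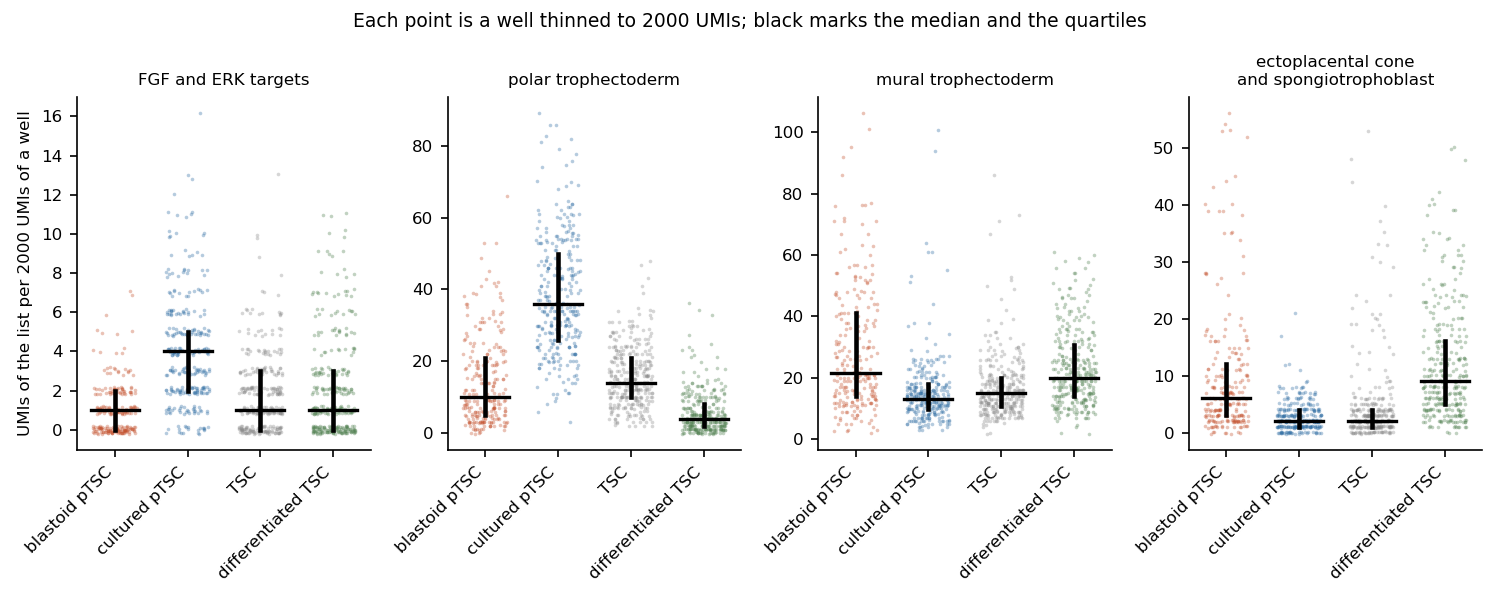
Sum of the UMIs of 4 gene lists in each well after thinning to 2000 UMIs, by library, with blastoid pTSC at left and then cultured pTSC. Black bars mark the median and quartiles. Blastoid wells have lower FGF and ERK and polar sums (medians 1 and 10, against 4 and 36 in cultured wells) and higher mural and ectoplacental sums (medians 21.5 and 6, against 13 and 2). Of the mean polar sum, Gsto1 alone gave 21.59 of 38.44 UMIs in cultured wells and 5.69 of 14.35 in blastoid wells. In TSC wells it gave 1.98 of 15.78.

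The lists varied together among blastoid wells. Across the 240 wells, the FGF and ERK sum had a Spearman's rho of 0.46 with the polar sum and of 0.40 with the TSC regulators, against -0.50 with the mural sum and -0.39 with the ectoplacental sum. Across the 299 cultured wells the same 4 values were 0.03, 0.04, 0.02 and -0.00015. Wells of 1 library share its depth, plate and culture, and each sum takes part of the same 2000 UMIs, so these are descriptions without a test. Polar and mural sums had rho of -0.69 in blastoid wells and -0.14 in cultured wells. How far Gsto1, a large part of the polar sum, carries the rho values of that sum was not tested. Single gene pairs, picked from 18 after their values were seen, varied. Nat8l was seen in 32 thinned blastoid wells and Nrk in 41, and no well held both, while Nrk and Tns4, a tensin of cell attachment, were seen in 41 and 39 wells and together in 20. Some pairs showed no such shape. Phlda2 was seen in 34.4% of the Nat8l wells and 35.8% of all blastoid wells. Nrk was seen in 19.8% of the Phlda2 wells and 17.1% of all, and Dusp6 in 4.88% of the Nrk wells and 5.83% of all. Others departed from the share of all wells, on few wells. Cpt1a was seen in 39.1% of the 23 Vdr wells and 16.7% of all, and Gpnmb in 4.88% of the Nrk wells and 12.1% of all.

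**Figure D4:**
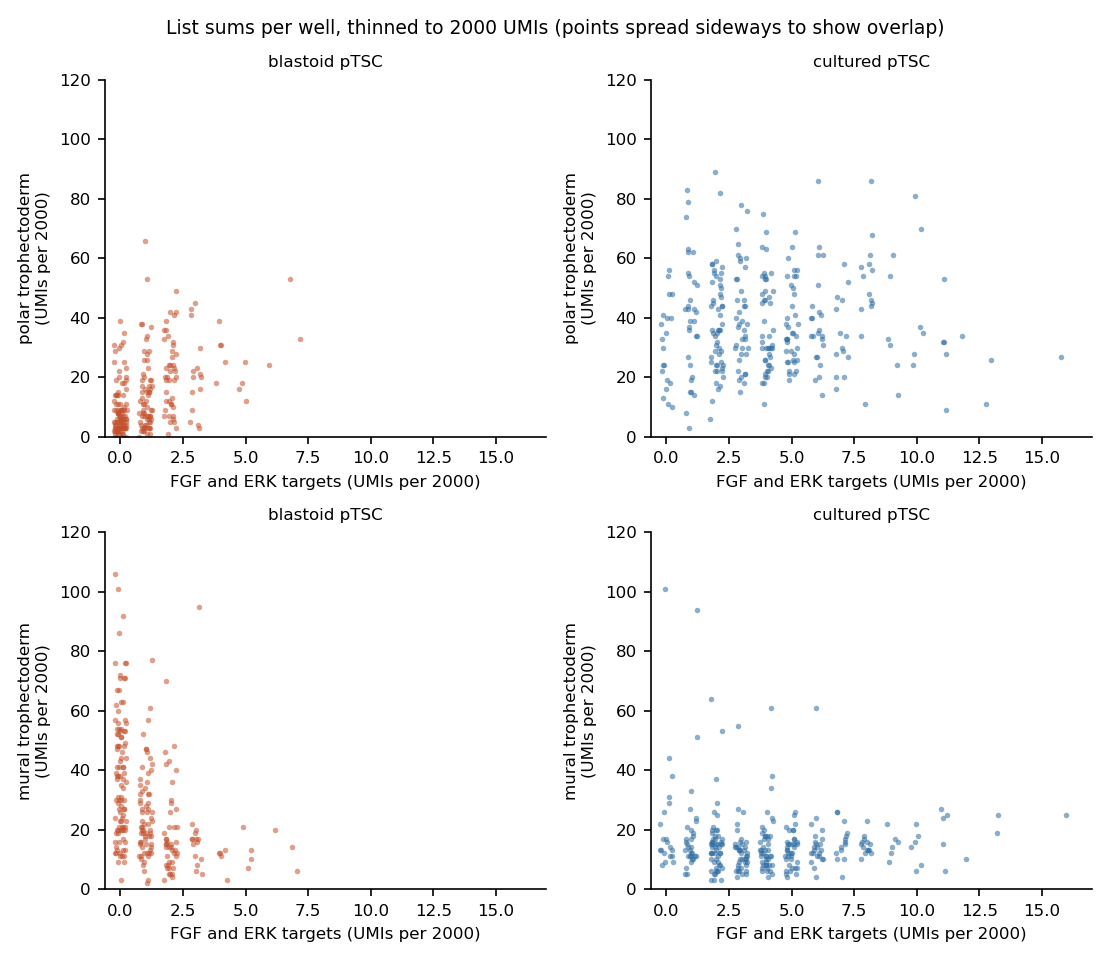
FGF and ERK sum (horizontal) against the polar sum (top) or mural sum (bottom), each in UMIs per 2000 UMIs, per blastoid well (left) and cultured well (right). In blastoid wells high mural sums lie at FGF and ERK sums near 0 (rho -0.50), and cultured wells show no such shape (rho 0.02).

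Of 20 measured factors that hold the stem state among 21 TSC regulators, 7 were lower, beside 10.2% among all measured genes, and 2 were higher, a share below the 12.5% among all (median log2 ratio -0.64). Without the pluripotency filter on wells, 4 were lower. Cdx2 was at 34.3 CPM in blastoid pTSCs and 54.6 CPM in cultured pTSCs, Eomes at 313 and 581 CPM, and Elf5 at 13.98 and 17.2 CPM, none of them 2-fold lower. Sox2 (282 and 573 CPM), Klf5 (268 and 602 CPM), the nuclear receptor Nr0b1 (23.5 and 68.9 CPM) and Zic2 (18.04 and 65.2 CPM) were lower. Gata3 was at 387.5 and 433 CPM. Lin28a, an RNA-binding protein that blocks the let-7 microRNAs, was at 437 CPM in blastoid pTSCs and 185 CPM in cultured pTSCs. Arid3a, also of this list, was higher too, at 229 CPM in blastoid pTSCs and 39.8 CPM in cultured pTSCs. In differentiated TSCs Cdx2 was at 2.46 CPM and Elf5 at 0.61 CPM, below both pTSC libraries.

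Among signalling targets, Cyr61, which the YAP and TEAD factors switch on, was at 70.4 CPM in blastoid pTSCs and 604 CPM in cultured pTSCs, 8.58-fold lower (7.27 to 10.2). Ajuba was at 70.4 and 239 CPM. Of 9 measured genes of that list among 11, 3 were lower and 0 higher. In the TGF-beta, NODAL and BMP list 5 of 13 measured genes among 17 were lower and 2 higher, the higher share near that of all genes. All counts here stand beside 10.2% lower and 12.5% higher among all measured genes. Smad6, an inhibitor of BMP signals, was at 90.2 CPM in blastoid pTSCs and 288 CPM in cultured pTSCs, and Bmp4 at 27.5 and 66.5 CPM. Bmp7 was higher, with 47 and 10 counts. Immediate early genes, which rise within minutes of a stimulus, had 7 of 14 measured genes lower and 2 higher (18 listed): Fos was at 58.7 CPM in blastoid pTSCs and 225 CPM in cultured pTSCs, and Jund at 666 and 323 CPM. Summed, this list was alike in both, at 2930 CPM in blastoid pTSCs and 2893 CPM in cultured pTSCs. It shares 3 genes with the FGF and ERK list.

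The synthesis of sterols and fatty acids was the other large group. Of 22 measured genes among 25, 18 were lower and 0 higher in blastoid pTSCs, beside 10.2% lower among all measured genes, and the median log2 ratio was -1.58. The values per gene were close to each other: all lower genes but Idi1, which rested on 2 and 20 counts, lay between -1.98 (Fasn) and -1.12 (Mvd) on the log2 scale. Hmgcs1, an early enzyme of the mevalonate pathway, was at 411 CPM in blastoid pTSCs and 1291.5 CPM in cultured pTSCs. Insig1, which senses sterol, was at 162 CPM in blastoid pTSCs and 568 CPM in cultured pTSCs. The sterol demethylase Cyp51 was at 234 and 887 CPM, the fatty acid synthase gene Fasn at 125 and 494 CPM, and the desaturase gene Scd2 at 1330 and 4249.5 CPM. The sum of the list per thinned well had a median of 8 UMIs in blastoid wells (quartiles 4.75 and 11) and 25 UMIs in cultured wells (quartiles 20 and 30). TSCs stood at 22 UMIs and differentiated TSCs at 7. Its rho with the FGF and ERK sum across blastoid wells was 0.01.

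Promoter windows of this list, from 250 bases before to 50 after the start of the gene, are shown because the genes moved together and because the factor SREBP2, which sterol depletion activates, binds promoters of such genes. Windows were available for 13 of the 22 measured genes in RefSeq, build GRCm38.p6. The letters CACCCCAC, the core of the sterol element of the LDL receptor gene, were sought on both strands and occurred in 2 of these 13 (15.4%), against 891 of 27025 genes (3.30%). The letters CCAAT, bound by a factor that acts beside SREBP, occurred in 11 of 13 (84.6%), against 41.1% of the 27025 genes. These 27025 are all genes with a window, measured here or not, and the share among measured genes was not taken. CCAAT was present in Srebf2 and Acly, both within 2-fold, and absent from Acaca and Acat2, both lower. The other genes with CCAAT were lower. The 2 windows with CACCCCAC are those of Hmgcs1 (plus strand, chr13:119690101-119690400, match 136 bases before the start) and Acat2 (minus strand, chr17:12960676-12960975, match 181 bases before the start). Capitals mark the match. A match describes the letters and shows no binding.
Hmgcs1: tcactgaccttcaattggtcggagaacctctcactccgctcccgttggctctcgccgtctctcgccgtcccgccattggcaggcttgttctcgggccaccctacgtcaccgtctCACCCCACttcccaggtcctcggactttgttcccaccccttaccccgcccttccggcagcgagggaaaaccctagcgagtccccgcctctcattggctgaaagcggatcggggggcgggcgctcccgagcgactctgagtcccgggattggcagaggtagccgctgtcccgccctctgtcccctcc
Acat2: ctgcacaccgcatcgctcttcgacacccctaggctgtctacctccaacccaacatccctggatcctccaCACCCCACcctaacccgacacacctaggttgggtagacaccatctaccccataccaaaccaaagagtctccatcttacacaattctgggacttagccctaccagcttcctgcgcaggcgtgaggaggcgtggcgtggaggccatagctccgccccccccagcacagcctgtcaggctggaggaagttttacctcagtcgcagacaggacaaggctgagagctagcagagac
Acat2, which condenses acetyl-CoA, was at 187 CPM in blastoid pTSCs and 611 CPM in cultured pTSCs, a ratio like that of Hmgcs1.

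Stress and nutrient genes were lower in part. In the list of ATF4 and the integrated stress response 7 of 20 measured genes among 26 were lower and 0 higher, beside 10.2% lower among all (median log2 ratio -0.73). Slc7a11, which imports cystine, was at 6.77 CPM in blastoid pTSCs and 66.9 CPM in cultured pTSCs, 9.88-fold lower (5.82 to 18.1). Chac1, which breaks down glutathione, was at 23.01 and 161 CPM, and the mitochondrial folate enzymes Shmt2 and Mthfd2 at 378 and 178 CPM in blastoid pTSCs and 1002 and 496 CPM in cultured pTSCs. Atf4 itself was at 1328 CPM in blastoid pTSCs and 1576 CPM in cultured pTSCs. The metal-binding proteins Mt1 (1247 and 3297 CPM) and Mt2 (1312 and 3180 CPM) were lower in blastoid pTSCs.

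The counts of the next 4 lists stand beside 12.5% higher and 10.2% lower among all measured genes. Vitamin D and retinoid genes divided evenly, 3 of 6 measured genes among 19 higher and 3 lower. Beside Vdr, its partner receptor Rxra was at 83.01 CPM in blastoid pTSCs and 21.3 CPM in cultured pTSCs, and Crabp2, which binds retinoic acid, had 53 and 4 counts. The retinoic acid hydroxylase Cyp26a1 was at 28.4 CPM in blastoid pTSCs and 115 CPM in cultured pTSCs. Cyp24a1, the enzyme that vitamin D induces, had 0 counts in both. Around Cpt1a, the list of PPAR and fatty acid oxidation had a median log2 ratio of 0.54, with 1 of 15 measured genes among 26 higher and 1 lower, which was the lipid carrier Fabp5 (12.6 and 67.7 CPM). Hypoxia genes had 4 of 14 measured genes among 24 higher and 2 lower: the mitophagy gene Bnip3 was at 312 CPM in blastoid pTSCs and 110 CPM in cultured pTSCs, and the factor Epas1 at 92.03 and 27.5 CPM, whereas Bhlhe40 was at 87.5 and 283.5 CPM. Lysosomal genes had 3 of 14 measured genes among 18 higher and 0 lower: Lamp2 was at 249 CPM in blastoid pTSCs and 72.2 CPM in cultured pTSCs, the protease Ctsb at 883 and 383 CPM, and Gpnmb at 58.7 and 11.1 CPM.

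Few genes of the cell cycle and of oxidative phosphorylation reached 2-fold. Counts here stand beside 12.5% higher and 10.2% lower among all measured genes. Of 18 measured G2 and M phase genes among 19, 0 were 2-fold higher or lower, and of 13 measured S phase genes among 18, 1 was lower. The thinned G2 and M sum had a median of 7 UMIs in blastoid wells and 8 in cultured wells, and 10.4% of blastoid wells and 0.669% of cultured wells had none. Nuclear genes of oxidative phosphorylation had 1 of 29 measured genes lower and 0 higher. Ribosomal protein genes had 4 of 29 lower, a share slightly above that of all genes, and 0 higher. Of those 4, 3 (Rpl5, Rps2 and Rps6) rested on 40 counts or fewer in either library. Of 9 measured genes of fluid transport among 15, 3 were higher and 0 lower, beside 12.5% higher among all. Among them, the sodium pump subunit Atp1b1 was within 2-fold (91.6 and 71.8 CPM), and the water channel Aqp3 had 48 counts in blastoid pTSCs and 11 in cultured pTSCs. Epithelial junction and keratin genes had 4 of 19 measured genes higher and 1 lower, beside 12.5% and 10.2% among all. Cdh1, the epithelial cadherin, was at 1551 CPM in blastoid pTSCs and 1383 CPM in cultured pTSCs, and the cell death gene Perp, which is also part of desmosomes, at 581 and 1439 CPM.

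**Figure D5:**
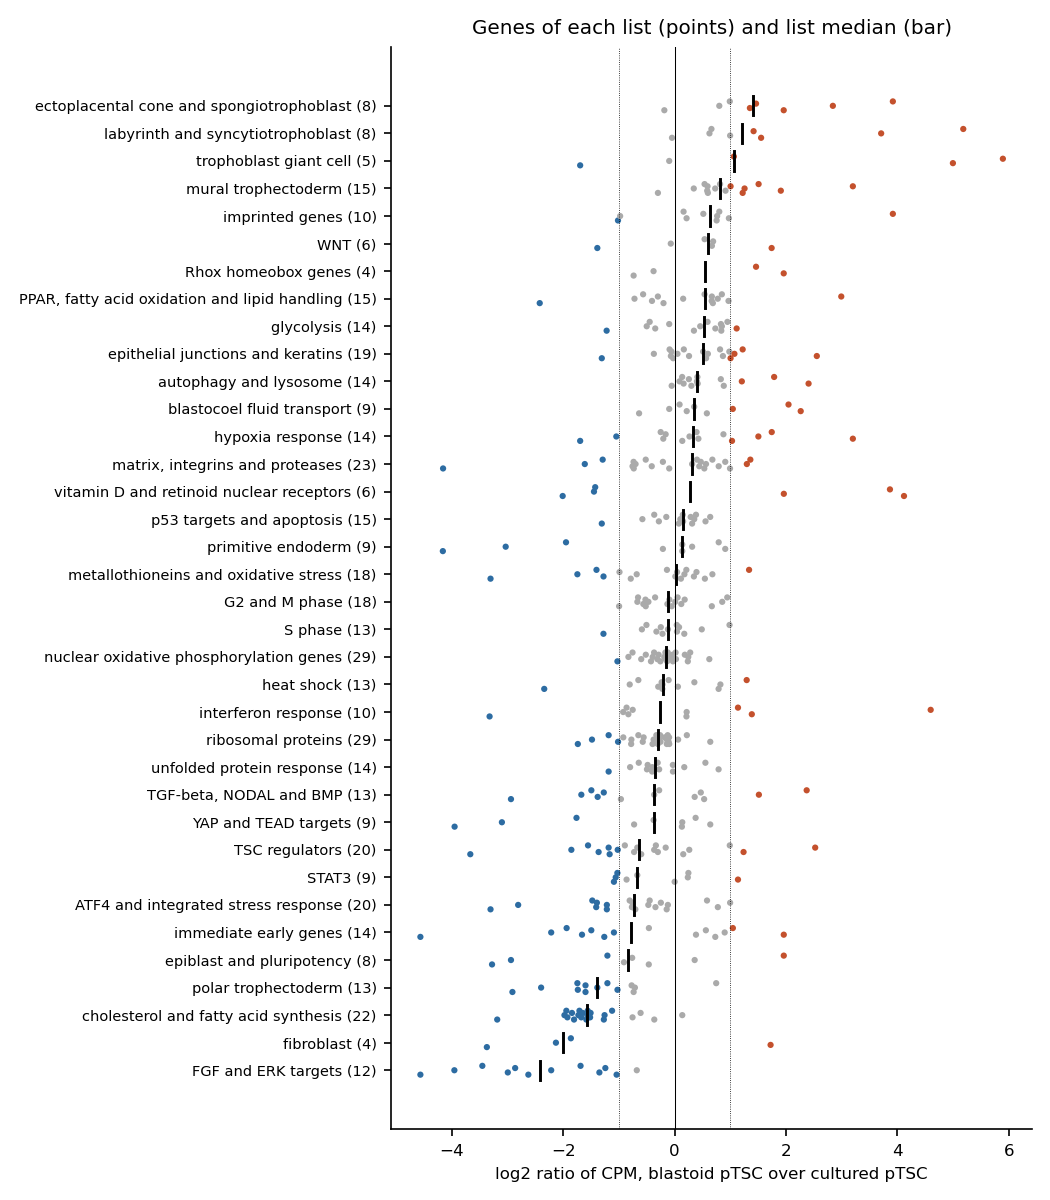
Log2 ratio of CPM, blastoid over cultured pTSC, of each measured gene (points) of 36 lists, with the list median (black bar), the number of measured genes in brackets, and dotted lines at 2-fold. The lowest median, -2.42, is that of the FGF and ERK targets, and the highest, 1.41, that of the ectoplacental cone list.

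The 15 largest and 15 smallest ratios were taken among the 3642 genes with at least 100 counts and a UMI in 10% of the thinned wells of the higher library. The higher ones outside the lists included Kif26a (74.4 CPM in blastoid pTSCs and 6.56 CPM in cultured pTSCs), Cnih2 (51.4 and 4.92 CPM), the tight junction protein Tjp3 (71.3 and 10.3 CPM), the secreted factor Dkkl1 (149 and 24.2 CPM) and the amyloid precursor App (114 and 18.9 CPM). The X-linked gene 3830417A13Rik was seen in 35.4% of blastoid wells and 5.69% of cultured wells after thinning (364 and 45.95 CPM). The smallest ratio was that of fibronectin, Fn1, at 5.87 CPM in blastoid pTSCs and 105 CPM in cultured pTSCs, 17.8-fold lower (10.25 to 33.96). TSCs had Fn1 at 3.71 CPM and differentiated TSCs at 5.84 CPM, so cultured pTSCs are the library that stands apart for it. The forkhead factor Foxq1 was at 32.9 CPM in blastoid pTSCs and 293 CPM in cultured pTSCs, the membrane protein Mal at 6.32 and 80.4 CPM, the coronin Coro2b at 6.77 and 91.1 CPM, and the glypican Gpc4, a co-receptor of growth factors, at 10.8 and 87.8 CPM.

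The genes were also set beside the ratio of differentiated TSCs over TSCs, which shares no library with this comparison. Those libraries, though both labelled F4, differ in sex-linked RNA. Xist stood at 281 CPM in TSCs and 4.30 CPM in differentiated TSCs, and genes of the Y chromosome together had 0 and 193 counts. Whether this difference bears on the shares below was not tested. Of 10476 genes measured in both, 1228 were higher in blastoid pTSCs, and 378 of these (30.8%) were also higher in differentiated TSCs, which is 22.8% of the 1656 genes higher there, where 15.8% of all genes are. Of 1005 genes lower in blastoid pTSCs, 293 (29.2%, against 16.8% of all genes) were also lower in differentiated TSCs, 16.7% of the 1759 lower there. In the opposite direction, 140 of the higher (11.4%) were lower in differentiated TSCs and 177 of the lower (17.6%) were higher.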

How the data were processed

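CEL-Seq2 was run on sorted single cells in 4 libraries of 384 wells, of which the blastoid pTSC and the cultured pTSC library are compared. The deposited tables give whole numbers of transcripts for each gene in each well, and these were taken, unrounded, as the authors' estimated counts. Per the submitters' processing notes, STAR 2.5.3a was among the tools. Genome build, annotation and counting program: not given in the sources used here. Bulk libraries and well barcode lists were not used. Values of a few single genes are not reported here, though counts and medians of lists include them.

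Mitochondrial genes stayed out of totals and comparisons. Counts were summed over the kept wells of a library and divided by their total (CPM), and a gene needed 10 counts or more in the 2 libraries together. Ratios were given with exact conditional binomial intervals at 95%, and shares of wells with Clopper-Pearson intervals. Where a library had 0 counts, 3 counts took their place. Intervals and these limits cover counting error only. Shares, list sums and Spearman's rho came from wells thinned to 2000 UMIs. The ratio and interval code was tested on simulated data, and the list code was not. Python 3.11.15, numpy 2.4.6, pandas 2.3.3, scipy 1.17.1 and matplotlib 3.10.9 were used.

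Named genes are members of 36 lists, the 15 largest and 15 smallest ratios among genes with 100 or more counts in all and a UMI in at least 10% of the thinned wells of the library where they are higher, and the 5 markers. The members and lists were chosen with earlier results of these data known, so their directions are not independent support. The 11 alternatives changed the well minimum, the pluripotency filter, the deepest wells, the depth of wells, the scaling, the gene minimum and the highest well, and further thinning draws were added after seeing the data.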

Additional observations from a re-analysis of the deposited data

How the results depend on the processing

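No call could be tested, since each group is 1 library, and plate, line and culture cannot be told apart. All 31 genes named by size of ratio or as markers kept their call under all 11 alternatives. Of the 163 list genes called, fewer did: 147 without the pluripotency filter, 122 of 134 measured with each well thinned, and 153 of 161 without the deepest wells. The TSC regulators called lower numbered 7 and became 4 without the filter, the FGF and ERK targets 11 and 9, and the STAT3 list genes 3 and, with each well thinned, 0 of 6 measured. The number of higher genes was 1403, and became 845 with each well thinned to 2000 UMIs (7250 genes measured), 548 with a gene minimum of 50 counts (6798 measured) and 2620 with a minimum of 1 count (15743 measured). The number of lower genes was 1143, and became 434 with a minimum of 50 counts and 1739 with a minimum of 1 count. The gene minimum changes which genes are measured. For the thinned count the cause was not tested. Under median-ratio scaling 1285 genes were higher and 1248 lower. Psat1 (log2 ratio 0.0947) and Rpl5 (0.0541) turned to the other side of 0 when each well was thinned, and Rps2 (0.17) without the pluripotency filter, all genes of 40 counts or fewer in either library. In 5 other random thinning draws over the same wells, an alternative chosen after seeing the data, shares of wells with a UMI were retaken. That of Dusp6 was 5.42% to 8.75% in blastoid pTSCs and 37.1% to 41.8% in cultured pTSCs. That of Vdr was 5.83% to 9.17% and 0.334% to 1.003%. The main draw lay above all 5 for Vdr in blastoid pTSCs (9.58%) and for Dusp6 in cultured pTSCs (42.1%). No paired analysis was possible because each group is 1 library and the labels give no shared replicate numbers.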

Other observations

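The X chromosome held 67 higher and 51 lower genes of 416 measured (16.1% and 12.3%), against 12.4% and 10.1% on the autosomes, and its median log2 ratio was 0.09, against 0.07. Xist, the RNA that silences an X chromosome, stood at 356 CPM in blastoid pTSCs and 195 CPM in cultured pTSCs, and genes of the Y chromosome together had 2 and 1 counts. Among imprinted genes, H19 was at 7270 CPM in blastoid pTSCs and 6506 CPM in cultured pTSCs but was seen in 69.6% and 85.6% of thinned wells, and Peg3, a paternally expressed gene, was at 1503 and 1052 CPM. Interferon response genes were few: Irf7 had 22 counts in blastoid pTSCs and 1 in cultured pTSCs, and H2-K1, a class I histocompatibility gene, had 2 and 22.

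Lists not described above had these counts at 2-fold among measured genes, beside 12.5% higher and 10.2% lower among all genes. STAT3 targets had 1 of 9 higher and 3 lower, unfolded protein response genes 0 of 14 and 1, heat shock genes 1 of 13 and 1, p53 targets 0 of 15 and 1, interferon genes 3 of 10 and 1, matrix genes 2 of 23 and 3, glycolysis genes 1 of 14 and 1, and WNT genes 1 of 6 and 1. Rhox genes had 2 of 4 higher and 0 lower, imprinted genes 1 of 10 and 1, giant cell genes 3 of 5 and 1, metallothioneins and oxidative stress genes 1 of 18 and 4, primitive endoderm genes 0 of 9 and 3, epiblast genes 1 of 8 and 3, and fibroblast genes 1 of 4 and 3. The higher giant cell genes include Serpinb9e and Serpinb9g, whose values are uncertain. Summed, the giant cell list was lower in blastoid pTSCs, at 216 CPM against 297 CPM in cultured pTSCs. The summed primitive endoderm list was higher in blastoid pTSCs, at 2245 CPM against 1311 CPM in cultured pTSCs. The endocytic receptor Lrp2, which takes up lipoproteins, had 6 counts in blastoid pTSCs and 118 in cultured pTSCs, and the growth factor Fgf5 had 0 and 32. Plaur, the receptor of urokinase, was at 70.8 CPM in blastoid pTSCs and 217 CPM in cultured pTSCs.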
